A study of Oryza sativa Japonica Group with 49 samples.

Results

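The drought response of ZH11 rice seedlings was read from 6 RNA-seq libraries, 3 of seedlings under drought (DS) and 3 of seedlings under normal conditions (NC), out of 49 samples in the series. The 6 libraries were chosen by their labels alone, and every gene model of the deposited table was considered. Zhonghua 11 (ZH11) is a japonica variety, used here as wild type with no transgene or mutation in either group, and the series used such libraries for a stress network of NAC transcription factors, from which ONAC023 was later picked. Both groups were raised from seed in a greenhouse and grown on in pots of sand and paddy soil. For DS, watering was stopped for 7 d, until the soil held less than 10% of its relative water content, per the labels, whereas the study's section on RNA extraction gives a shorter time below that limit. Each library was made from several pooled seedlings, and the labels give neither the organs taken nor the age at harvest, which only the study's section on RNA extraction states.

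When soil dries, rice makes abscisic acid (ABA), a hormone cut from carotenoids by 9-cis-epoxycarotenoid dioxygenases (NCEDs). Receptors that bind ABA block type 2C protein phosphatases (PP2Cs), which frees SnRK2 kinases (SAPKs in rice) to activate bZIP factors, and these switch on genes for late embryogenesis abundant (LEA) proteins and dehydrins, hydrophilic proteins that protect cells from water loss. Stomata close, carbon fixation slows, osmolytes accumulate, and leaf growth and photosynthesis are commonly reduced.

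The NC libraries held 88536976 to 117202626 counts and the DS libraries 40829670 to 58129570. A read pair was worth 4 counts in every NC library and 2 in every DS library, judged from the most frequent low value, so that the read pairs per library, in units of 1000000, came to 22.1 to 29.3 in NC and 20.4 to 29.1 in DS. This unit differs between the groups throughout, so whatever made it differ and drought cannot be told apart from these libraries alone. A fit on counts divided by the unit is given in the closing section. Values below are CPM, counts per 1000000 of the TMM-scaled library total, and are not corrected for gene length. NC libraries correlated with each other at 0.995 to 0.997 (log2(CPM + 1), across genes, which are not independent). DS replicates 1 and 3 correlated at 0.991, and DS replicate 2 stood apart from them at 0.972 and 0.963, so values that rest on it are marked.

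Markers of plant parts differed between the groups. The summed level of 10 green leaf genes was 42817, 40674 and 30757 CPM in NC and 5684, 10681 and 7640.2 CPM in DS. That of 6 root genes was 73.8, 75.8 and 77.5 CPM in NC and 19.7, 43.9 and 11.2 CPM in DS. In each library, 1 or 2 of the 6 were under 1 CPM. By the thresholds given below, the root genes OsFRO1 and Lsi1 were down-regulated and the other 4 were not called. OsFRO1 and Lsi1 made up most of the root sum in NC, so its fall does not stand for all 6 genes. The 2 floral genes summed to 2.45 to 3.06 CPM in NC and 0.852 to 2.00 CPM in DS. By contrast, 5 genes of the vascular secondary wall summed to 85.6, 75.4 and 79.4 CPM in NC and 321, 579.6 and 385 CPM in DS. In such bulk libraries, fewer cells of a type and less RNA per cell cannot be told apart, and the part of these shifts in the results below was not tested.

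**Figure D1:**
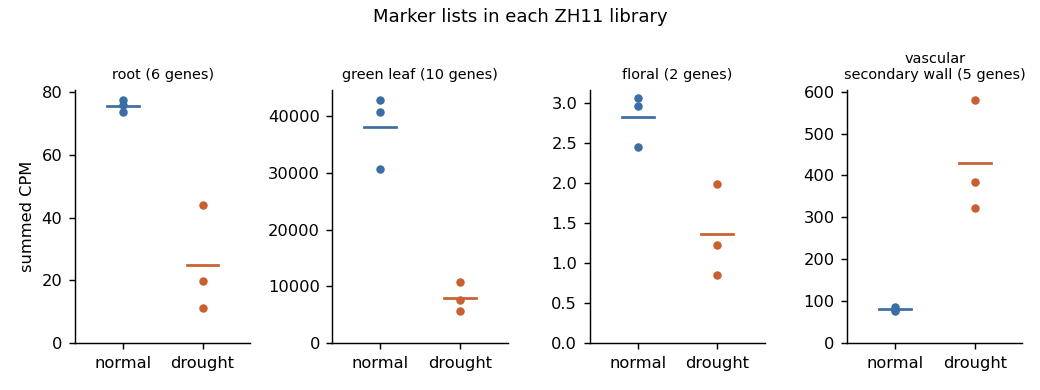
Summed CPM of 4 marker lists in each ZH11 library, with points for libraries and lines for the means of 3. The green leaf sum is at 30757 CPM or more in NC and at 10681 CPM or less in DS, and the vascular secondary wall sum is at 85.6 CPM or less in NC and at 321 CPM or more in DS.

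A large part of the transcriptome differed between DS and NC, and the balance of increases and decreases differed between bands of average abundance. Of 24797 genes tested, 43.1% were differentially expressed genes (DEGs, past 2-fold with an edgeR adjusted p below 0.05), with 26.2% up-regulated and 16.9% down-regulated. The increases were also the larger changes. With genes that had no count in one group held at their lower bound, 997 up-regulated genes rose by more than 32-fold and 88 down-regulated genes fell by as much. With fitted folds, which are no bounds for such genes, these numbers were 1524 and 121. Without DS replicate 2, 6312 genes were up-regulated and 4492 down-regulated, and 9908 of the 10693 DEGs kept their call and direction. TMM factors were 0.838 to 0.891 in NC and 1.15 to 1.19 in DS. Scaling by library totals without these factors moved the median change of all genes by 0.44 on the log2 scale, and DEGs then numbered 8529 upward and 2638 downward, so that the share of DEGs that rose went from 60.8% to 76.4%.

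Among the 499 most abundant genes, with an average of 8 or more log2 CPM, 54.1% were down-regulated and 17.6% up-regulated. Among the 4361 genes under 0 log2 CPM, 44.5% were up-regulated and 10.6% down-regulated. The bands rest on the same 6 libraries as the calls, and a gene could pass the filter on low counts through a single group. Up-regulated genes without any NC count numbered 602, against 36 down-regulated genes without any DS count. The part of filter and banding in these shares was not tested. The 20 most abundant genes of a library took 11.4% to 13.1% of the counts in NC and 6.27% to 7.92% in DS, and genes at 1 CPM or more of the library total numbered 18210 to 18390 in NC and 20516 to 21407 in DS. Counts in ZH11 DS were thus spread over more genes than in ZH11 NC. In DJ seedlings, a variety introduced below, fewer genes were at 1 CPM or more in DS, 18985 to 19206 against 20192 to 20714 in NC. The 20 most abundant genes took 7.50% to 8.27% of the counts in DJ NC and 8.16% to 9.46% in DJ DS. The difference between the varieties was not tested.

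**Figure D2:**
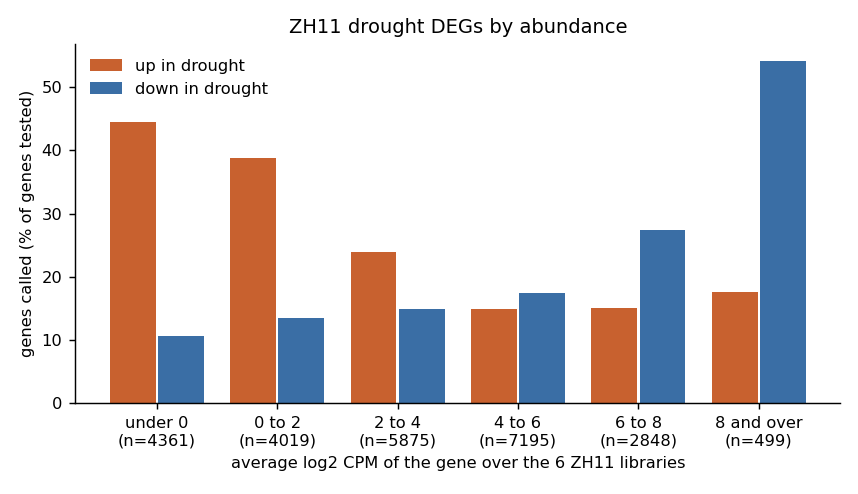
Share of ZH11 genes up-regulated and down-regulated in drought (percent of genes tested) in 6 bands of average log2 CPM over the 6 libraries, with the number of genes tested under each band. Up-regulated genes make up 44.5% of the lowest band and 17.6% of the highest, and down-regulated genes 10.6% and 54.1%.

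Names or descriptions were available for 4399 of the tested genes. Sources were genes that the study had picked in libraries of DJ and onac023 mutant plants, and its candidate ONAC023-interacting proteins. This subset was not neutral: 64.2% of it were DEGs in ZH11, 48.7% up-regulated and 15.5% down-regulated. Their median change was 1.11 on the log2 scale, against 0.07 over all genes tested. Counts for the gene lists below are to be read against these shares. For reference, the same comparison in DJ seedlings, another japonica variety whose 6 libraries all had a read pair worth 2 counts, is given beside some values. Of the annotated genes tested in DJ, 38.3% were up-regulated and 39.1% down-regulated there. DJ values were scaled separately, shared no library with ZH11, and the difference between the varieties was not tested.

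**Figure D3:**
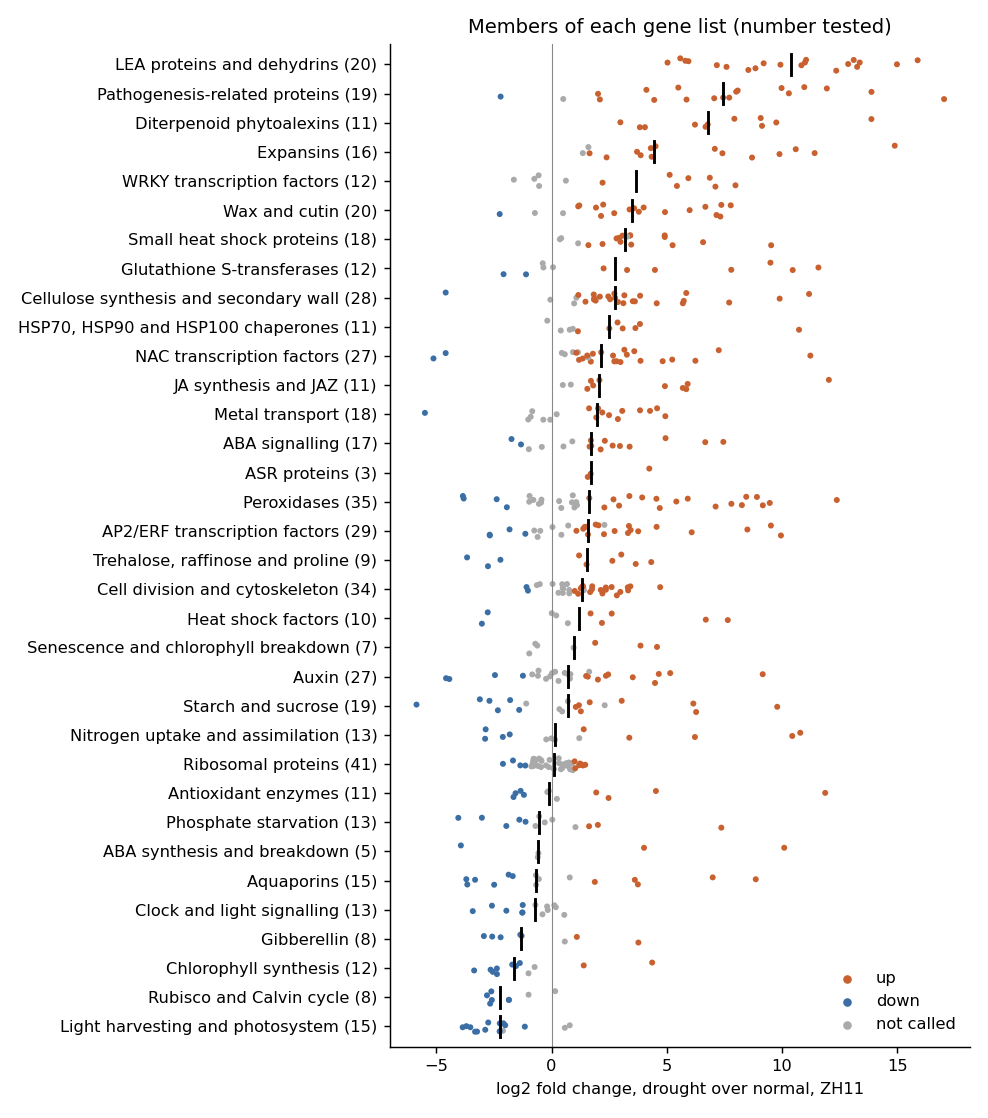
Log2 fold change (drought over normal, ZH11) of each tested member of 34 gene lists, with a bar at each list's median and the number tested in parentheses; colours mark the call. Values of members without a count in one group are fitted and are no bounds. All LEA members lie right of 0, and the light harvesting list has its median at -2.25.

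LEA and dehydrin genes, the late targets of ABA, rose the most of any list. RAB16A (LOC_Os11g26790), a dehydrin, was at 0.265, 1.45 and 0.939 CPM in NC and at 8759, 3924 and 10514 CPM in DS. It had the largest gain of CPM of all annotated genes, a fold of 8819 (log2 fold change 13.11 ± 0.89 (SE, n = 3), edgeR adjusted p = 3.3e-05). OsLEA3 (LOC_Os05g46480) rose from 0.166, 0.386 and 0.431 CPM to 1844, 1453 and 1863 CPM, and LOC_Os01g12580, a further LEA gene, from 0.265, 0.147 and 0.211 CPM to 76.7, 75.1 and 83.9 CPM. All 20 tested LEA and dehydrin genes of 21 were up-regulated. The 16 with a count in both groups had log2 fold changes of 5.03 to 13.37. The other 4 had no count in NC, and their lower bounds were 1.02 to 9.32. The median over the list was 10.38 as fitted and 9.02 with these bounds. The summed level of the list was 34.6, 46.7 and 44.5 CPM in NC and 16429, 8502 and 18707 CPM in DS, lowest in DS replicate 2. In DJ all 20 tested members were up-regulated too.

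The listed genes of ABA synthesis and breakdown split by member. OsNCED4 (LOC_Os07g05940) went from 0.110, 0.0400 and 0.0670 CPM to 87.9, 93.3 and 66.1 CPM, and OsNCED3 (LOC_Os03g44380), from 2.12, 3.01 and 3.31 CPM to 54.0, 34.6 and 47.7 CPM. OsNCED1 (LOC_Os02g47510), also named OsCCD4a, moved the other way, from 874, 825 and 699 CPM to 45.5, 63.0 and 48.5 CPM (log2 fold change -3.93 ± 0.18 (SE, n = 3), adjusted p = 1.0e-05). The names of OsNCED1 differ on whether it is an NCED, so its fall is not read as a fall of ABA synthesis. In NC this dioxygenase took most of the CPM of the 5 genes of ABA synthesis and breakdown. OsABA2 (LOC_Os03g59610), which makes the aldehyde precursor of ABA, and OsABA8ox2 (LOC_Os08g36860), which hydroxylates ABA for breakdown, had log2 fold changes of -0.60 and -0.57 and did not pass the fold threshold.

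**Figure D4:**
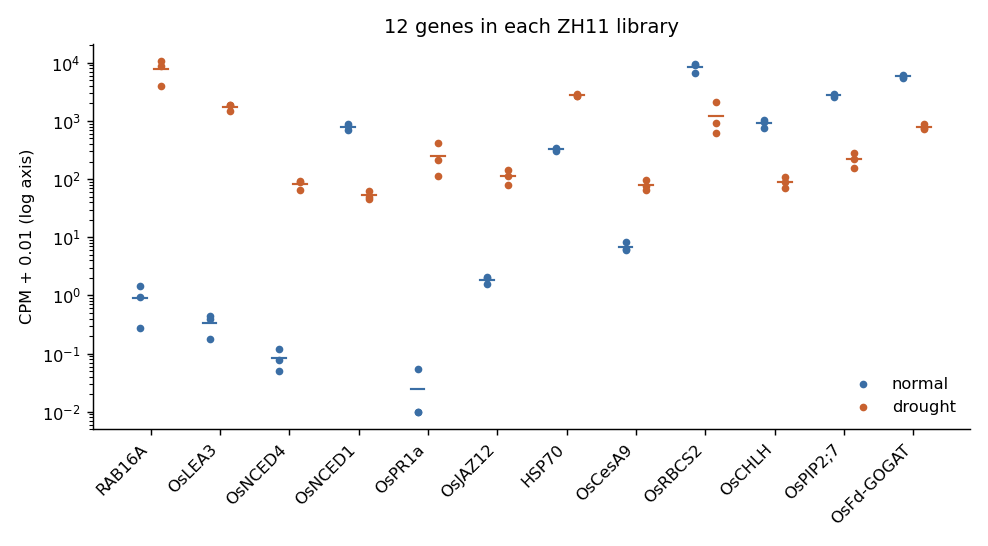
CPM + 0.01 (log axis) of 12 genes in each ZH11 library, with points for libraries and lines for the means of 3. RAB16A, OsLEA3, OsNCED4, OsPR1a, OsJAZ12, HSP70 and OsCesA9 are higher in every DS library, and OsNCED1, OsRBCS2, OsCHLH, OsPIP2;7 and OsFd-GOGAT are lower in every one.

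In ABA signalling, 11 of 17 tested genes were up-regulated and 2 down-regulated (median log2 fold change 1.73). OsPP2C51 (LOC_Os05g49730), a phosphatase of the ABA core, rose from 0.552, 0.546 and 1.03 CPM to 158, 91.5 and 129.7 CPM, and the PP2C gene LOC_Os02g27220 rose 4.38-fold. The PP2C gene LOC_Os02g55560 fell from 106, 109.8 and 125 CPM to 37.5, 35.1 and 29.8 CPM, while it rose in DJ by 1.61 on the log2 scale. The kinase gene SAPK7 (LOC_Os04g35240) fell 2.50-fold, a call that was lost with scaling by library totals. The 3 ASR (ABA, stress and ripening) genes were all up-regulated. ASR5 (LOC_Os11g06720) went from 1122, 1129 and 989.5 CPM to 3129, 2856 and 4527 CPM, and Asr1 (LOC_Os01g72900) rose 18.9-fold. Asr3 (LOC_Os02g33820) was at 77.4, 81.5 and 73.3 CPM in NC and at 158, 443 and 89.0 CPM in DS, and its call did not hold when libraries were left out. It was lost without any 1 of the NC replicates, at 1.51 to 1.59 on the log2 scale, without DS replicate 2, at 0.68, and against a minimum fold of 2.

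Among the listed transcription factors tested, 74.1% of NAC, 62.1% of AP2/ERF and 58.3% of WRKY genes were up-regulated, against 48.7% of annotated genes. Family members without a supplied name or description were not examined. Of 27 tested NAC genes, a plant-specific family with stress and wall regulators, 20 were up-regulated and 2 down-regulated (median 2.15). ONAC122 (LOC_Os11g03300) went from 0.630, 0.812 and 0.891 CPM to 78.1, 46.2 and 52.4 CPM and ONAC131 (LOC_Os12g03040) from 1.41, 1.40 and 1.51 CPM to 73.1, 34.8 and 55.3 CPM. The 2 that fell were OsSWN3 (LOC_Os08g01330), from 16.05, 18.9 and 19.9 CPM to 0.711, 1.06 and 0.469 CPM, and OMTN6 (LOC_Os08g10080), from 33.9, 28.0 and 22.8 CPM to 0.622, 1.23 and 0.533 CPM. ONAC023 itself (LOC_Os02g12310) had no count in any NC library and 0.0889, 0.275 and 0.426 CPM in DS. It did not pass the filter on low counts and was not tested.

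Of 29 tested AP2/ERF genes, 18 were up-regulated and 4 down-regulated (median 1.58). OsDREB2A (LOC_Os01g07120), which binds drought-responsive promoter elements, was at 11.8, 12.3 and 13.5 CPM in NC and at 50.7, 45.8 and 45.4 CPM in DS. RSR1 (LOC_Os05g03040), a regulator of starch synthesis, fell 2.20-fold, a call lost with scaling by library totals and against a minimum fold of 2. Of 12 tested WRKY genes, 7 were up-regulated and none down-regulated, among them WRKY10 (LOC_Os01g09100), which rose 34.8-fold but stayed at 7.39 to 15.5 CPM in DS. The list's median was 3.67, or 1.81 with a member that had no count in NC at its lower bound. In DJ, 4 WRKY genes of 13 were up-regulated and 6 down-regulated.

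Chaperone genes rose. HSP70 (LOC_Os11g47760), a cytosolic chaperone, was at 325, 304 and 339.7 CPM in NC and at 2720.5, 2849 and 2658 CPM in DS (log2 fold change 3.09 ± 0.13 (SE, n = 3), adjusted p = 8.8e-06). In DJ its levels overlapped between NC and DS, at 1315 to 1828 and 1823 to 2014 CPM. A further DnaK family gene (LOC_Os03g16920) went from 0, 0.240 and 0.0766 CPM to 179.8, 158 and 170.1 CPM. Of 11 tested HSP70, HSP90 and HSP100 genes, 7 were up-regulated and none down-regulated, and of 18 tested small heat shock proteins, 14 were up-regulated and none down-regulated (median log2 fold changes 2.51 and 3.18, the latter 3.03 with a member without counts in NC at its bound). The 14 listed HSP70, HSP90 and HSP100 genes summed to 827 to 979 CPM in ZH11 NC and 4014 to 4200 CPM in ZH11 DS. In DJ, scaled separately, the sum was 3160 to 4219 CPM in NC and 5719 to 7351 CPM in DS.

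Levels of the small heat shock genes stayed moderate. Their sum over 19 genes was 32.3 to 37.9 CPM in NC and 367, 197 and 409 CPM in DS. One of them, LOC_Os02g54140, rose 30.0-fold. Among 10 tested heat shock factors, which bind the promoters of chaperone genes, 5 were up-regulated and 2 down-regulated. These shares of 50% and 20% lie near the 48.7% and 15.5% of annotated genes. OsHsfA7 (LOC_Os01g39020) rose from 0.420, 0.653 and 0.326 CPM to 54.1, 26.5 and 61.9 CPM and OsHsfB2b (LOC_Os08g43334) rose 4.55-fold, whereas OsHSFA2d (LOC_Os03g06630) fell from 47.8, 42.2 and 39.8 CPM to 4.57, 5.09 and 6.35 CPM.

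Photosynthesis genes mostly fell. The 15 light harvesting and photosystem genes together took 28308, 25878.5 and 19993 CPM in NC and 2965, 4264 and 3919.5 CPM in DS. Of these, 12 were down-regulated and none up-regulated (median -2.25). LOC_Os07g37550, a chlorophyll a/b-binding protein of the antenna, fell from 2988, 2653 and 2173 CPM to 237, 256 and 292 CPM, and LOC_Os03g56670, a photosystem I subunit, from 2084, 2049 and 1586 CPM to 213, 279 and 287 CPM. CP29 (LOC_Os07g37240) and Lhcb5 (LOC_Os11g13890), minor antenna proteins of photosystem II, fell 9.39-fold and 11.5-fold, and CAB2R (LOC_Os01g41710) fell 6.70-fold.

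Carbon fixation followed, with 6 of 8 tested genes down-regulated and none up-regulated (median -2.22). The Rubisco small subunit genes fell to different extents. OsRBCS2 (LOC_Os12g17600) went from 9554, 9034 and 6550.5 CPM to 619, 2085 and 905 CPM, and OsRBCS4 (LOC_Os12g19470) fell 3.61-fold. OsRBCS3 (LOC_Os12g19381) was at 5280.2, 4920.4 and 4027 CPM in NC and at 1779, 3036 and 2318 CPM in DS, a log2 fold change of -0.996 that did not pass the fold threshold, and -1.21 with a call without DS replicate 2. These genes are close copies, so reads may have been divided between them in counting. In DS replicate 2 all 3 were higher than in the other DS libraries. RPE (LOC_Os03g07300) and OsTK (LOC_Os06g04270), enzymes that regenerate the acceptor of carbon dioxide, fell 6.33-fold and 3.60-fold.

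Of 12 chlorophyll synthesis genes, 8 were down-regulated and 2 up-regulated (median -1.62). OsCHLH (LOC_Os03g20700), a subunit of the chelatase that inserts magnesium, fell from 1018, 976 and 763 CPM to 69.7, 110.0 and 89.4 CPM. The protochlorophyllide reductase OsPORB (LOC_Os10g35370) fell 6.25-fold, while OsPORA (LOC_Os04g58200), which does the same step in dark-grown tissue, rose from 14.6, 13.1 and 9.26 CPM to 23.0, 39.8 and 34.4 CPM. The call of OsPORA was lost against a minimum fold of 2, and in DJ it fell by 4.98 on the log2 scale. OsCAO1 (LOC_Os10g41780), which makes chlorophyll b, fell 2.92-fold. The second up-regulated gene was its neighbouring copy OsCAO2 (LOC_Os10g41760), at 0, 0 and 0.0479 CPM in NC and at 0.320, 0.448 and 0.426 CPM in DS, where reads may be shared between the copies. Of the 10 green leaf markers, 4 are in the light harvesting list and 3 in the carbon fixation list, so their fall is partly the same observation.

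Genes of chlorophyll breakdown changed by less than 2-fold. NYC1 (LOC_Os01g12710), the chlorophyll b reductase, was at 914, 1042 and 862 CPM in NC and at 606, 627 and 495 CPM in DS, with a log2 fold change of -0.71 ± 0.14 (SE, n = 3) that did not pass the fold threshold. NYC3 (LOC_Os06g24730) and NYC4 (LOC_Os07g37250) had log2 fold changes of 0.96 and -0.97, also within 2-fold, and NYC3 passed the threshold under several of the scalings tried. In DJ, NYC1 rose by 3.07 on the log2 scale. Among the other senescence genes in ZH11, OsNAP (LOC_Os03g21060), a NAC factor of leaf senescence, went from 9.43, 9.54 and 11.01 CPM to 136, 208 and 90.9 CPM. Osh36 (LOC_Os05g39770) rose 23.8-fold and Osh69 (LOC_Os08g38710) rose 3.71-fold, whereas OsSAG12-2 (LOC_Os08g44270) was not called. In all, 3 of the 7 genes of the list were up-regulated and none down-regulated. This share of 42.9% up-regulated is below the 48.7% of annotated genes.

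Genes of trehalose, raffinose and proline metabolism and transport changed in both directions, with 6 of 9 up-regulated and 3 down-regulated. The galactinol synthases, which start raffinose synthesis, rose: OsGolS1 (LOC_Os03g20120) from 54.3, 54.4 and 59.5 CPM to 463, 196 and 711 CPM, and OsGolS2 (LOC_Os07g48830) from 66.4, 58.0 and 57.2 CPM to 902, 539 and 843 CPM. Both were lowest in DS replicate 2 among the DS libraries. In trehalose metabolism, the synthase OsTPS8 (LOC_Os08g34580) rose 20.03-fold and the hydrolase OsTRE1 (LOC_Os10g37660) 6.22-fold, whereas the phosphatases OsTPP1 (LOC_Os02g44230) and OsTPP7 (LOC_Os09g20390) fell 12.7-fold and 4.65-fold. The proline transporters also diverged. OsProT3 (LOC_Os07g01090) fell 6.76-fold, and OsProT1 (LOC_Os01g68050) was at 2.33, 2.60 and 1.57 CPM in NC and 3.84, 10.7 and 4.05 CPM in DS, a call that was lost without DS replicate 2, at 0.87 on the log2 scale, without NC replicate 1 or 3, at 1.55 and 1.31, and against a minimum fold of 2.

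Of 19 starch and sucrose genes, 8 were up-regulated and 6 down-regulated (42.1% and 31.6%, against 48.7% and 15.5% of annotated genes). Their sum fell from 3219 to 3383.5 CPM in NC to 888.2 to 1114 CPM in DS. Pho2 (LOC_Os01g63270), listed with starch metabolism, went from 1331, 1322 and 1201 CPM to 157, 135 and 154 CPM, and the starch synthase gene SSIIB (LOC_Os02g51070) fell 5.02-fold. The invertase OSINV3 (LOC_Os02g01590), which splits sucrose in the vacuole, rose from 1.46, 1.04 and 1.59 CPM to 78.1, 122 and 92.2 CPM.

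Water channels changed one by one. Of 15 tested aquaporins, 5 were up-regulated and 6 down-regulated (33.3% and 40%, against 48.7% and 15.5% of annotated genes). The 2 with the most CPM in NC both fell. OsPIP2;7 (LOC_Os09g36930), a plasma membrane channel that the study follows as an ONAC023 target, went from 2931, 2830.3 and 2597 CPM to 158, 286 and 219.7 CPM (log2 fold change -3.65 ± 0.25 (SE, n = 3), adjusted p = 3.3e-05). LOC_Os01g74450, a further aquaporin, fell 13.0-fold. OsPIP2;6 (LOC_Os04g16450) rose from 12.3, 8.55 and 9.98 CPM to 105, 159 and 113 CPM, and OsPIP1;2 (LOC_Os04g47220) rose 3.67-fold. The sum of the 15 genes was 5190.2 to 5541 CPM in NC and 1989 to 2231 CPM in DS. Lsi1 (LOC_Os02g51110), a silicon channel of the root, fell from 19.9, 21.3 and 18.8 CPM to 4.09, 2.17 and 4.45 CPM, while it rose in DJ by 2.73 on the log2 scale.

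Genes of the growing and thickening cell wall rose. Of 28 tested genes of cellulose synthesis and the secondary wall, 24 were up-regulated and 1, OsSWN3, was down-regulated (median 2.74). The 3 cellulose synthases of the secondary wall rose together: OsCesA9 (LOC_Os09g25490) from 8.16, 6.27 and 6.07 CPM to 64.9, 96.2 and 75.1 CPM, OsCesA4 (LOC_Os01g54620) 6.75-fold and OsCesA8 (LOC_Os07g10770) 4.27-fold. The xylan synthesis genes OsIRX9 (LOC_Os07g49370) and OsIRX10 (LOC_Os01g70200) rose 3.58-fold and 5.51-fold, and MYB61 (LOC_Os01g18240), a regulator of cellulose synthases, rose 7.37-fold. The call of OsIRX9 was lost against a minimum fold of 2. OsCesA8, OsIRX9 and OsIRX10 were each highest in DS replicate 2. These genes include the vascular markers given above, and in DJ 5 members of the list were up-regulated and 14 down-regulated. The list summed to 178 to 195 CPM in ZH11 NC and 671 to 1197 CPM in ZH11 DS. In DJ, scaled separately, the sum was 583 to 974 CPM in NC and 294 to 484 CPM in DS.

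Expansins, which loosen walls during cell growth, rose in 14 of 16 tested cases, with none down-regulated. The median was 4.43, or 3.95 with 5 members that had no count in NC at their bounds. Their sum was low in NC, at 45.1 to 52.9 CPM, and reached 189, 443 and 193 CPM in DS. LOC_Os02g51040 went from 0.199, 0.147 and 0.0383 CPM to 12.4, 34.6 and 17.3 CPM, and the more abundant EXPLA1 (LOC_Os03g04020) from 30.1, 28.6 and 29.2 CPM to 98.1, 86.7 and 90.9 CPM. Of 34 tested genes of cell division and the cytoskeleton, 20 were up-regulated and 2 down-regulated (median 1.34), among them the kinesin gene OsDLK (LOC_Os07g01490), which rose 3.20-fold.

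Wax and cutin genes, whose products seal the leaf surface, were up-regulated in 17 of 20 tested cases and down-regulated in 1. WSL5 (LOC_Os03g04660), a cytochrome P450 of leaf wax, rose from 2.73, 2.70 and 2.57 CPM to 34.2, 47.6 and 45.7 CPM, and LOC_Os04g02640, a 3-ketoacyl-CoA synthase that lengthens fatty acids, rose 30.3-fold. The one that fell, a putative wax synthase (LOC_Os01g48874), dropped 4.75-fold. In DJ, 4 members were up-regulated and 16 down-regulated, and WSL5 was at 89.4 to 116 CPM in NC and 10.5 to 13.7 CPM in DS. The NC level of WSL5 was thus low in ZH11 and high in DJ, on separately scaled tables.

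The listed genes of diterpenoid phytoalexin synthesis all rose as well, and pathway genes without a supplied name were not examined. This pathway makes antimicrobial momilactones and related compounds. All 11 genes were up-regulated, with log2 fold changes of 2.98 to 9.75 in the 10 that had a count in NC. In NC they were nearly silent, with a sum of 2.13 to 2.90 CPM, and in DS the sum was 102, 363 and 82.9 CPM. OsCPS4 (LOC_Os04g09900), the first enzyme of the momilactone branch, had no count in NC and 11.2, 57.0 and 7.97 CPM in DS, at least 159-fold higher, or at least 60.0-fold without DS replicate 2. OsCPS2 (LOC_Os02g36210), the first enzyme of the phytocassane branch, rose from 0.497, 0.360 and 0.287 CPM to 10.6, 65.0 and 9.57 CPM. OsDTC1 (LOC_Os02g36140), a diterpene cyclase, rose from 0.0994, 0.0932 and 0 CPM to 43.2, 87.6 and 27.9 CPM.

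Every one of the 11 genes was highest in DS replicate 2, and all 11 remained called without that library. The P450 genes CYP99A2 (LOC_Os04g10160) and CYP99A3 (LOC_Os04g09920) rose from at most 0.0932 CPM to 2.51 CPM or more, and CYP76M7 (LOC_Os02g36110) and CYP76M8 (LOC_Os02g36070) to 3.92 CPM or more. The cyclases OsKSL4 (LOC_Os04g10060), OsKSL5 (LOC_Os02g36220), OsKSL11 (LOC_Os11g28530) and OsKS10 (LOC_Os12g30824) reached 26.4, 5.12, 16.1 and 25.2 CPM in DS replicate 2. OsKSL5 lost its call without NC replicate 2 and against a minimum fold of 2. In DJ, none of the 11 was up-regulated and 9 were down-regulated, from a sum of 46.1, 56.4 and 62.5 CPM in NC to 7.61, 5.94 and 4.05 CPM in DS.

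**Figure D5:**
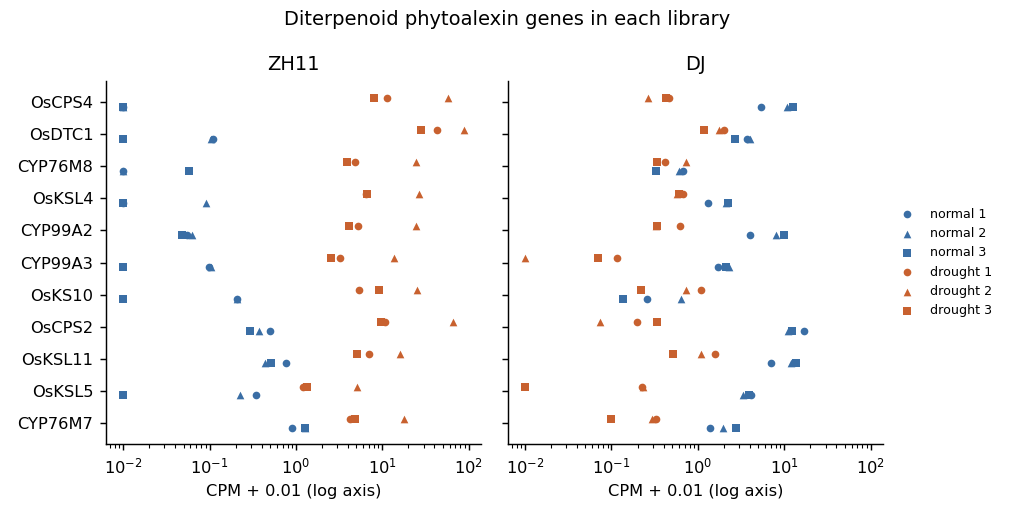
CPM + 0.01 (log axis) of the 11 diterpenoid phytoalexin genes in each library of ZH11 and of DJ, scaled separately, with the replicates as separate symbols. In ZH11 every drought point lies to the right of every normal point of its gene, and drought replicate 2 lies farthest right; in DJ 9 genes were down-regulated.

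Of the 11 phytoalexin genes, 7 lie in 2 runs of up-regulated neighbours. On chromosome 4, 7 consecutive tested gene models from LOC_Os04g09840 to LOC_Os04g10160 were all up-regulated, with log2 fold changes of 2.61 or more, and on chromosome 2, 7 from LOC_Os02g35970 to LOC_Os02g36140 were, with 1.23 or more. OsCPS2 and OsKSL5 lie beyond the run on chromosome 2, and OsKSL11 and OsKS10 on chromosomes 11 and 12. Runs of 6 or more consecutive tested models with the same call numbered 37 for up-regulation and 7 for down-regulation, by the order of the identifiers. The longest held 15 models on chromosome 7, LOC_Os07g35280 to LOC_Os07g35520, of which the 1 annotated model is a DUF26 receptor-like kinase. A further run of 7 on chromosome 4, LOC_Os04g27340 to LOC_Os04g27750, held 3 annotated terpene synthases. Where neighbours in a run belong to one gene family, reads may be shared among them. The 2 runs with phytoalexin genes hold annotated genes of several families, among them P450s and diterpene cyclases. The part of shared reads in these runs was not tested. Across the 12 chromosomes the share of genes up-regulated was 23.7% to 28.1%, and the share down-regulated 15.8% to 17.97%.

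Pathogenesis-related genes rose too. Of 19 tested, 17 were up-regulated and 1 down-regulated (median 7.44, or 7.05 with 2 members without counts in NC at their bounds). OsPR1a (LOC_Os07g03710), a classical defence marker, was at 0.0442, 0 and 0 CPM in NC and at 213, 418 and 113 CPM in DS. PR-5 (LOC_Os03g46060), a thaumatin-like protein, rose from 0.884, 1.598 and 2.01 CPM to 316, 418 and 208 CPM. The chitinase gene CHIT5 (LOC_Os05g33140), picked after its values were seen, had no count in NC and 305, 114 and 259 CPM in DS, at least 1414-fold higher and the highest level among the 602 up-regulated genes without a count in any NC library. Of those 602 genes, 42 had a mean of 10 CPM or more in DS, and 36 down-regulated genes had no count in any DS library.

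Defence and wound proteins were also among the largest gains of CPM. OsHI-XIP (LOC_Os05g15770), a xylanase inhibitor, rose from 6.23, 5.03 and 4.22 CPM to 4331, 2176 and 3069 CPM, and OsSalT (LOC_Os01g24710), a mannose-binding lectin first described in salt stress, from 0.232, 0.653 and 0.354 CPM to 4759, 3089 and 2910.0 CPM. RAMY (LOC_Os01g15270), named only, rose from 215, 272 and 240.3 CPM to 4825, 3087 and 4412 CPM. The largest loss of CPM among annotated genes was that of OsDR8 (LOC_Os07g34570), from 12572, 12756 and 11178 CPM to 3411, 2539 and 4048 CPM.

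Of 11 genes of jasmonate synthesis and its JAZ repressors, 9 were up-regulated and none down-regulated (median 2.08). JAZ proteins hold back jasmonate responses and are themselves made when jasmonate rises. OsJAZ12 (LOC_Os10g25290) went from 1.57, 1.97 and 2.05 CPM to 115, 141 and 79.3 CPM, and OsJAZ10 (LOC_Os03g08330) rose 30.2-fold. OsAOS3 (LOC_Os02g12680), an allene oxide synthase-like P450, had no count in NC and 9.03, 6.44 and 5.75 CPM in DS, at least 44.3-fold higher, and OsACX2 (LOC_Os11g39220), which shortens acyl chains in peroxisomes, rose 4.22-fold.

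Redox genes changed in both directions. Of 35 tested class III peroxidases, secreted enzymes of the wall, 18 were up-regulated and 4 down-regulated. These shares of 51.4% and 11.4% lie near the 48.7% and 15.5% of annotated genes. LOC_Os01g22370 rose from 7.42, 7.46 and 6.48 CPM to 339, 273 and 297 CPM, and prx113 (LOC_Os07g48040) fell from 144, 145 and 141 CPM to 6.83, 11.5 and 12.3 CPM. Of the 11 antioxidant genes, 4 rose and 4 fell past the threshold (36.4% each way, against 48.7% and 15.5% of annotated genes). A copper/zinc superoxide dismutase (LOC_Os07g46990) rose 3.83-fold and the alternative oxidase AOX1a (LOC_Os04g51150) 5.55-fold, whereas the ascorbate peroxidases OsAPX2 (LOC_Os07g49400) and OsAPX4 (LOC_Os08g43560) fell 3.13-fold and 2.95-fold. Of 12 glutathione S-transferase and related genes, 7 were up-regulated and 2 down-regulated (median 2.77, or 2.60 with 3 members at their bounds).

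Nitrogen assimilation genes moved in both directions. OsGS2 (LOC_Os04g56400), the plastid glutamine synthetase, went from 2373, 2257 and 2089 CPM to 240.0, 388 and 299 CPM, and OsFd-GOGAT (LOC_Os07g46460), its partner, from 5682, 5563 and 6185 CPM to 737, 756 and 873 CPM. OsGS1;3 (LOC_Os03g50490), a cytosolic glutamine synthetase, rose from 0.0442, 0 and 0 CPM to 32.5, 29.5 and 25.5 CPM. The asparagine synthetase OsASN1 (LOC_Os03g18130) rose from 3.45, 3.06 and 1.41 CPM to 238, 186 and 163 CPM. Over the list, 5 of 13 genes were up-regulated and 4 down-regulated (38.5% and 30.8%, against 48.7% and 15.5% of annotated genes).

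Of 13 phosphate starvation genes, 3 were up-regulated and 5 down-regulated (23.1% and 38.5%, against 48.7% and 15.5% of annotated genes). The plastid phosphate transporter OsPHT2;1 (LOC_Os02g38020) fell 8.11-fold and the regulator OsPHR4 (LOC_Os06g49040) 3.89-fold, while the uptake transporter OsPht1;1 (LOC_Os03g05620) rose 3.09-fold. The latter was at 1.63 on the log2 scale and at 1.03 without DS replicate 2, and its call was lost against a minimum fold of 2. In metal transport, 11 of 18 genes were up-regulated and 1 was down-regulated. The manganese transporter OsMTP9 (LOC_Os01g03914) rose 7.35-fold, and the ferric reductase OsFRO1 (LOC_Os04g48930), a root marker, fell from 41.9, 40.4 and 43.4 CPM to 0.356, 1.75 and 0.597 CPM.

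Gibberellin genes fell in 5 of 8 cases and rose in 2. sd1 (LOC_Os01g66100), the oxidase behind the semi-dwarf stature of modern rice, fell 7.65-fold, and OsCPS1 (LOC_Os02g17780), the first enzyme of the pathway, fell 4.62-fold, against the rise of its phytoalexin relatives OsCPS2 and OsCPS4. Of 27 tested auxin genes, 10 were up-regulated and 4 down-regulated (37.0% and 14.8%, against 48.7% and 15.5% of annotated genes). The response factor gene OsARF16 (LOC_Os06g09660) rose 4.03-fold, the synthesis gene OsYUCCA10 (LOC_Os01g16750) fell 23.8-fold, and an auxin efflux carrier gene (LOC_Os01g69070) fell from 89.96, 96.2 and 83.4 CPM to 3.93, 3.82 and 4.75 CPM. Of 13 clock and light signalling genes, 6 were down-regulated and none up-regulated, among them OsCOL13 (LOC_Os07g47140), which fell 6.00-fold, and OsPRR37 (LOC_Os07g49460), which fell 3.89-fold.

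Most ribosomal protein genes were not called. Of 41 tested, 7 were up-regulated, 4 down-regulated and 30 not called, with a median of 0.11. LOC_Os03g27260, a 40S subunit gene, rose 2.40-fold. With scaling by library totals, 14 were up-regulated and 2 down-regulated. In DJ, 33 of 41 were down-regulated and 1 up-regulated. Of 299 transposon-annotated models, 162 passed the filter on low counts, and 83 of them were up-regulated and 27 down-regulated (median 1.71, or 1.36 with 15 models at their bounds). These shares of 51.2% and 16.7% lie near those of all annotated genes.

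Among the 11 genes that the study follows up, 10 were tested, of which 2 were up-regulated (RAB16A and OsFKBP20-1b) and 3 down-regulated. OsFKBP20-1b (LOC_Os01g62610), an immunophilin linked to splicing, rose from 1.36, 1.36 and 0.958 CPM to 30.2, 14.5 and 28.7 CPM, and OsREM1.5 (LOC_Os04g45070), a remorin of the plasma membrane, fell 2.36-fold, a call lost with scaling by library totals and against a minimum fold of 2.

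Outside the lists, the changes with the smallest p had tight replicates. LOC_Os04g38680, a putative amino acid transporter, rose from 0.729, 0.786 and 0.690 CPM to 124, 119 and 89.4 CPM, and LOC_Os02g02910, an expressed protein, fell from 263, 271 and 265 CPM to 16.1, 15.7 and 15.8 CPM. Of the genes without annotation, LOC_Os03g27980 rose from 0.0442, 0.0266 and 0.0383 CPM to 50.4, 36.3 and 45.3 CPM, and LOC_Os09g37710 fell from 238, 228 and 234 CPM to 9.28, 10.2 and 10.4 CPM.

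Side by side with DJ, 23316 genes were tested in both varieties. Of the 5882 up-regulated in ZH11, 48.2% were up-regulated and 22.4% down-regulated in DJ, where 25.2% and 29.1% of all genes tested were. Of the 3935 down-regulated in ZH11, 56.8% were down-regulated and 5.49% up-regulated in DJ. Of 73 genes at 1 CPM or more in all ZH11 NC libraries and at 0.1 CPM or less in all DJ NC libraries, the ZH11 drought libraries held 55 to 60 at 0.5 CPM or more and the DJ drought libraries 1 to 2. The reverse set did not separate the varieties under drought: of 369 genes found in DJ NC and absent in ZH11 NC by the same limits, the ZH11 drought libraries held 189 to 220 and the DJ drought libraries 210 to 223.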

How the data were processed

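Total RNA of pooled seedlings was sequenced by the authors, with a stranded kit and with replicates described as repeats of the treatment. Whether these were grown as separate batches is not given for RNA-seq in the sources used here, so p-values measure the spread between these libraries, which may be partly technical. The authors trimmed reads, aligned them to the MSU rice genome and deposited, for each of 55986 gene models, estimated counts as whole numbers that were not normalized. HISAT2, StringTie and DESeq2 are named in the submitters' processing notes, and STAR in the paper's methods. The expected counts were used without rounding or rescaling. No strand setting of the counting and no gene length is given in the sources used here. The mutant table and the ChIP–seq samples were not analysed here.

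For the 6 libraries, TMM scaling, filterByExpr and the quasi-likelihood F-test of edgeR 4.0.16 (R 4.3.3) were used, with Benjamini-Hochberg adjustment over all genes tested. The SE was taken as the absolute log2 change over the root of F. Genes were called at an adjusted p under 0.05 and a fold over 2, the paper's thresholds. The DJ libraries were fitted apart in the same way. Folds against groups without counts were taken against 3 read pairs in a single library (12 counts in NC, 6 in DS). Floors cover counting error only. With 3 libraries against 3, an exact permutation test cannot go below p = 0.1. Alternatives were DESeq2 1.42.0, other scalings and filters, glmTreat, a replicate block, all 19 libraries in 1 fit, counts divided by the worth of a read pair, and each library left out. Summaries used Python 3.11.15, pandas 2.3.3 and numpy 2.4.6.

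Gene names and the 36 lists and 4 marker lists came from the names and descriptions of 5048 gene models in the tables supplied with the paper. The reference gene table matched 0 identifiers, so no positions or sequences are given. The lists, members and tests were chosen with earlier results of these data known. Named genes are, per list, the 2 called members with the smallest p in each direction whose groups do not overlap, all members of lists of up to 12 and of the genes the study follows up, the 4 annotated genes outside the lists with the smallest p and the 5 with the largest gain or loss of mean CPM in each direction, and 1 unannotated model in each. Not every gene that the rule allows is named. CHIT5 falls outside it. The fit was tested on simulated data for this comparison: among 24329 genes with 200 shifted by 2 on the log2 scale, 146 were recovered with 7 false calls. The simulated shifts were balanced in direction, with no difference in composition or in the worth of a read pair between the groups. The simulation thus cannot show how the fit handles the many DEGs, the scaling or the count unit of the real libraries.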

Additional observations from a re-analysis of the deposited data

Results flagged for a closer look

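The results below have opposite directions in ZH11 and DJ, with every drought library of one variety above, and every drought library of the other below, its own normal libraries. The difference between the varieties was not tested, and the varieties were scaled separately. All values are log2 fold changes of drought over normal, ZH11 first, and call no gene particular to a variety.

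Among the phytoalexin genes, OsCPS2 was at 6.22 and -6.07, OsCPS4 at 13.87 and -4.65, OsKSL4 at 9.07 and -1.62 and OsKSL5 at 3.83 and -4.66. OsDTC1 was at 9.75 and -1.08, OsKSL11 at 4.05 and -3.36, CYP76M7 at 2.98 and -3.10, CYP99A2 at 7.93 and -4.09 and CYP99A3 at 6.77 and -5.06. The value of OsCPS4 in ZH11 is fitted against libraries without a count and is no bound.

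In the cell wall and cuticle, OsCesA8 was at 2.10 and -2.79, OsIRX9 at 1.84 and -3.65, MYB61 at 2.88 and -1.86 and the kinesin gene OsDLK at 1.68 and -1.36. The wax gene WSL5 was at 3.99 and -3.18 and the 3-ketoacyl-CoA synthase gene LOC_Os04g02640 at 4.92 and -1.55.

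Of the remaining genes, Asr3 was at 1.57 and -2.06, ASR5 at 1.70 and -1.17, OsPORA at 1.40 and -4.98, OsProT1 at 1.52 and -4.20, the phosphate transporter OsPht1;1 at 1.63 and -2.20 and the ribosomal gene LOC_Os03g27260 at 1.26 and -1.72. The PP2C gene LOC_Os02g55560 was at -1.74 and 1.61 and the silicon channel Lsi1 at -2.49 and 2.73.

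For 5 lists the difference of the median log2(CPM + 0.5) over members also had opposite signs. It was 4.06 in ZH11 and -2.11 in DJ for diterpenoid phytoalexins, 3.10 and -1.67 for wax and cutin, 2.46 and -1.53 for cellulose and the secondary wall, 2.11 and -1.77 for peroxidases, and 2.10 and -0.83 for WRKY factors.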

How the results depend on the processing

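The total of DEGs in ZH11 stayed within 1.5 times under every alternative run, and with any 1 library left out it was 10127 to 11011, with 6103 to 6679 up-regulated and 4024 to 4492 down-regulated. Requiring an average of at least 1 log2 CPM left 4155 up-regulated genes of 18695 tested, since fewer genes were tested. Library totals without TMM factors, chosen after seeing the data, left 2638 down-regulated genes, with all values shifted upward by that scaling. DESeq2 gave 6732 up-regulated and 4027 down-regulated genes. With counts divided by the worth of a read pair, 5898 genes were up-regulated and 3862 down-regulated of 22737 tested. In that fit, all 127 named genes tested kept their side of the threshold. No named gene changed direction under any alternative. Of 128 named genes tested, 120 kept their side of the threshold in a test against a minimum fold of 2 and 124 without DS replicate 2. Depth limits low genes: 3 read pairs, the floor used, came to at most 0.160 CPM in NC and 0.128 CPM in DS.

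The replicate numbers did not pair the samples: deviations of same-numbered NC and DS libraries correlated at -0.07, 0.03 and -0.02. With a replicate block, 6043 genes were up-regulated and 4117 down-regulated. Asr3, at 1.24, lost its call with the block, and OsRBCS3, at -1.02, gained one. Peroxidases called as down-regulated numbered 4, but 2 without NC replicate 2 and 2 without DS replicate 3.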
